A study of Mus musculus with 3 samples.

Results

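The Schlafen family of the mouse was examined in melan-a NRAS61K cells, immortalized mouse melanocytes that carry the NRAS61K oncogene. Its members here are Slfn1, Slfn2, Slfn3, Slfn4, Slfn5, Slfn8 and Slfn9, that is 7 of the 18194 genes with a probe set of their own. All 11 probe sets annotated to 1 of these genes alone were taken, of 45101 on the array. The 7 genes had been chosen for this description because of values seen on these same arrays, so their differences are given as a description and were not tested.

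Cells were kept with doxycycline at 1 µg/ml for 6, 14 or 28 days, and total RNA of each time point was hybridized to 1 Affymetrix array. All 3 groups carry NRAS61K and all were treated, and untreated cells were not analysed here. The sources used here do not say which promoter drives the oncogene, or whether the cells were a single clone. A single array stands for each time point, so the spread between cultures is not known. The number of arrays limits the precision of every value, and each comparison describes a pair of arrays.

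Schlafen genes encode proteins with a shared N-terminal core, several of which bind or cut RNA. They are known as interferon-inducible genes that restrain growth and viruses, first in lymphocytes and macrophages. Short forms (Slfn1, Slfn2) and intermediate forms (Slfn3, Slfn4) lack the helicase-like C-terminal part that the long forms (Slfn5, Slfn8, Slfn9) carry. Interferons reach such genes through receptors, the JAK kinases and STAT and IRF factors, which bind response elements in promoters.

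The genes lie side by side on chromosome 11. In assembly GRCm38.p6 they span chr11:82951349-83215154, which is 263.8 kb, in the order Slfn5, Slfn9, Slfn8, Slfn2, Slfn1, Slfn4 and Slfn3. The RefSeq promoter windows, 250 bases before to 50 bases after the annotated start, matched all 7 members by symbol. The windows of the long forms are shown first because the genes read above the background at day 6 or day 14 were both of this kind. Capitals mark a match to the core of the interferon-stimulated response element, GAAA and GAAA separated by any 2 bases, searched on both strands. Slfn8 has 2 annotated starts, and the window of the upstream one is printed. Slfn9 and Slfn8 lie on the minus strand and Slfn5 on the plus strand, at chr11:82991781-82992080, chr11:83020761-83021060 and chr11:82951852-82952151.

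Slfn9: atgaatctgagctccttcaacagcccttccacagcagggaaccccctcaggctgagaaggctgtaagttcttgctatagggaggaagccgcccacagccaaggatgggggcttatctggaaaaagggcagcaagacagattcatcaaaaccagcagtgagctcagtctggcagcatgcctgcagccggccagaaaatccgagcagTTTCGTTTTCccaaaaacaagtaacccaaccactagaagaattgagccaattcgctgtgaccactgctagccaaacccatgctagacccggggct
Slfn8: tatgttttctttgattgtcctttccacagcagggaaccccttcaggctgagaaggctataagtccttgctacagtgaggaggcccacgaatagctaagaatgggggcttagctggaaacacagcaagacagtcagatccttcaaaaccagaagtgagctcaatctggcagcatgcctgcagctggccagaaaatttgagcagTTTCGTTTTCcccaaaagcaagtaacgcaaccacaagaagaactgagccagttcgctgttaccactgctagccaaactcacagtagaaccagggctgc
Slfn5: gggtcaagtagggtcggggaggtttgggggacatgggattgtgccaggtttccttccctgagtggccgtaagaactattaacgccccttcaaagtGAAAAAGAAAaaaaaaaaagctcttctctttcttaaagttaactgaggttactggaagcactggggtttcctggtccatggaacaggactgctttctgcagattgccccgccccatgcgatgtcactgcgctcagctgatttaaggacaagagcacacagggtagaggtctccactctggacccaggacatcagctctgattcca

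The windows of Slfn9 and Slfn8 were near copies of each other, identical in 81.0% of 305 aligned columns. Both held the core as the same letters, GAAAACGAAA on the opposite strand. It began 45 bases before the start in Slfn9 and 48 bases before the start in Slfn8. Slfn5, whose window matched that of Slfn9 in 46.7% of columns, held GAAAAAGAAA beginning 155 bases before the start of its window, ahead of a run of A. That start lies inside the annotated gene. The outer end of Slfn5, at chr11:82951349, lies before the window and was not searched. Of all genes with a promoter window, 3.99% had such a core, as did 15 of 23 interferon-stimulated genes on the list used below. The gamma-activated site, TTCNNNGAA, was in the window of 0 of 7 members and of 9.55% of all genes. A match describes letters and is not a measured binding site.

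The short and intermediate forms shared another word. ACTTCCTG, whose complement holds the GGAA core that ETS factors recognise, was in the windows of Slfn1, Slfn2, Slfn3 and Slfn4 and of 3.86% of all genes. This word was picked after the sequences were seen, from the longest run that Slfn1 and Slfn4 share, 15 bases. It did not overlap an interferon-stimulated response element core in any member, since none of these 4 windows held that core. Stretches of 40 bases around it are shown so that the copies can be compared, all on the plus strand, with the word in capitals on either strand. They lie at chr11:83116722-83116761 (Slfn1), chr11:83065033-83065072 (Slfn2), chr11:83191264-83191303 (Slfn3) and chr11:83175089-83175128 (Slfn4).

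Slfn1: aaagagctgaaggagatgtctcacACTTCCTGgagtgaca
Slfn2: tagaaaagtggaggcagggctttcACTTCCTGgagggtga
Slfn3: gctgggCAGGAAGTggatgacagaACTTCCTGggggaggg
Slfn4: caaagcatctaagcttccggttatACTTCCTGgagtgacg

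**Figure D1:**
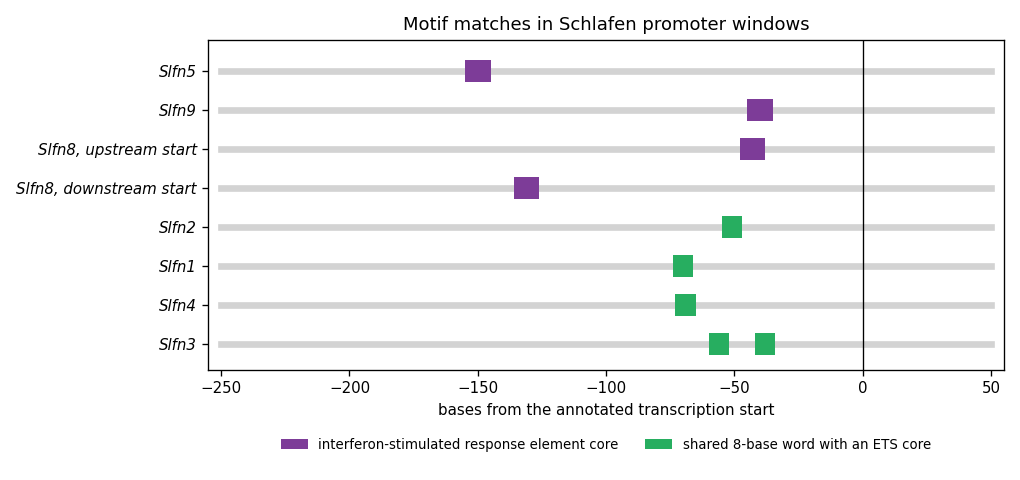
Motif matches in the promoter windows of the 7 Schlafen members, in bases from the annotated transcription start (x axis), with 1 row per window and the 2 starts of Slfn8 drawn apart. Purple bars mark the interferon-stimulated response element core, seen in Slfn5, Slfn9 and both Slfn8 windows, and green bars the shared 8-base word, seen in Slfn1, Slfn2, Slfn3 and Slfn4.

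Values below are the deposited log values, whose base of 2 was inferred. A gene was called above background when it exceeded a threshold from 26 genes held to be silent in pigment cells, the 90th percentile of their 43 probe sets. That background was 22.66, 22.58 and 22.90 at days 6, 14 and 28. Of the 7 members, 3 passed it at 1 or more of the time points (Slfn8, Slfn9 and Slfn2), against 66.0% of all genes. The other 4 lay below it on all 3 arrays, on every probe set. The columns had been quantile normalized, so each difference is relative to the other genes. In bulk RNA, fewer cells with a transcript and less of it per cell cannot be told apart.

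Slfn8, a long form and with Slfn9 the closest mouse relative of human SLFN11, read 22.76, 24.58 and 25.63 at days 6, 14 and 28. It was the only member above background on all 3 arrays, by 0.10 at day 6 and by 2.72 at day 28. Its values were in the order of time, with day 28 highest. The day 28 value of Slfn8 was 7.30-fold the day 6 value, a log2 difference of 2.87 that was the 58th highest among 11765 genes. Day 14 exceeded day 6 by 3.53-fold, and day 28 exceeded day 14 by 2.06-fold. Since the day 6 value lay at the edge of the background, the folds against it rest on a dim reading. The gene has a single probe set (1451655_at), so no other probe set could be set beside these values.

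Slfn9, the long form next to Slfn8, read 21.98, 22.95 and 23.35 at days 6, 14 and 28 on its brighter probe set (1436472_at). It lay below the background at day 6 and above it by 0.37 at day 14 and 0.45 at day 28. Set against the day 6 background, it was at least 1.61-fold higher at day 28 and at least 1.22-fold higher at day 14. The difference between day 28 and day 14 was 0.40, which ranked 1648th of 11727 genes, where that of Slfn8 ranked 229th. The other probe set (1458803_at) read 22.02, 21.75 and 21.79, below the background throughout, and so did not show this order. Slfn9 is therefore described by 1 probe set near the background, with its 2 probe sets in disagreement.

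Slfn5, the remaining long form, is known in human cells as a gene that type I interferon induces in melanocytes. Its 3 probe sets stood at -5.01 to -1.27 relative to the background over the 3 arrays, and no fold is given. The brightest on average read 20.36, 21.26 and 21.45 at days 6, 14 and 28, another 17.65, 20.03 and 21.64, and the last 20.38, 19.73 and 20.77. All 3 read highest at day 28, yet only as differences among values below the background.

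Slfn2, a short form whose loss in mice breaks the quiescence of T cells, read 21.84, 21.74 and 23.69 at days 6, 14 and 28 (1450165_at). The days 6 and 14 values were below the background, with a difference of -0.11 for day 14 minus day 6, and day 28 stood above it by 0.79. It was at least 2.04-fold higher at day 28 than at day 6 and at least 2.16-fold higher than at day 14. Slfn2 thus passed the background only on the day 28 array, where Slfn8 was above it on all 3, and no test of that difference is possible with 1 array each.

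Slfn1, the short form first described as a growth inhibitor of thymocytes, had a probe set (1447614_at) reading 20.68, 20.75 and 20.68. A second one (1418612_at) read 14.07, 7.87 and 16.44. Both were below the background on all arrays, and the swings of the second lay in a range where all probe sets swing. Among 549 probe sets with a mean under 15, the median size of the difference between day 28 and day 14 was 8.36.

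Of the intermediate forms, Slfn3, studied in regulatory T cells and gut epithelium, read 21.00, 20.09 and 19.68 at days 6, 14 and 28. Slfn4, a gene of monocytes and macrophages, read 18.52, 19.87 and 20.11. Both stayed below the background on all arrays, and their values ran in opposite directions over time. A probe set annotated to both genes, which is outside the 11, read 20.35, 17.11 and 20.15 and was below the background too.

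**Figure D2:**
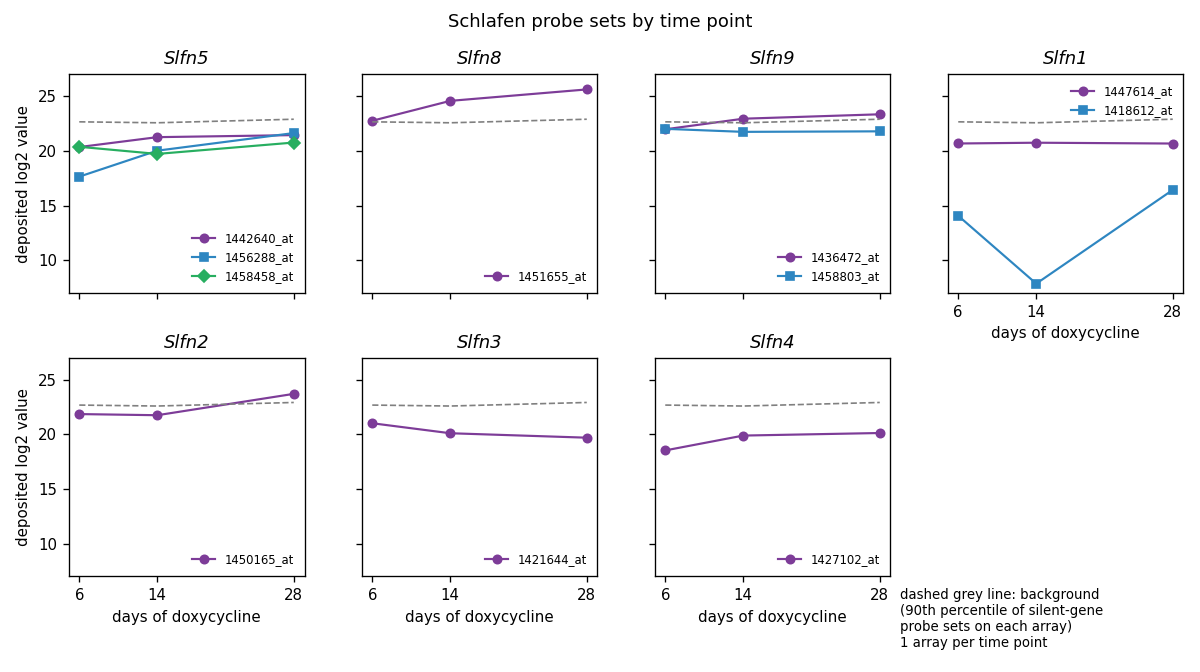
Deposited log2 values (y axis) of the 11 Schlafen probe sets at 6, 14 and 28 days of doxycycline (x axis), 1 panel per gene, with the background of each array as a dashed line and 1 array per time point. Slfn8 reads 22.76, 24.58 and 25.63, Slfn9 passes the background at day 14 and Slfn2 at day 28, and Slfn1, Slfn3, Slfn4 and Slfn5 stay below it.

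Counted as genes, 3 members lay above the background at day 28 or day 6. All 3 had a measured log2 difference of 1 or more (2-fold) at day 28, and 0 were lower. The direction of Slfn2 and Slfn9 was set by this filter, which they passed through day 28 alone. Slfn1 (-0.0035), Slfn3 (-1.32), Slfn4 (1.59) and Slfn5 (1.09) lay below the background on both arrays and were not counted. The share of all genes 2-fold higher was 6.43%, and 4.08% were 2-fold lower. For day 14 against day 6, 1 of 2 members above the background was 2-fold higher (Slfn8) and 0 were lower, against 5.43% and 3.95% of genes. For day 28 against day 14, 2 of 3 were 2-fold higher (Slfn8 and Slfn2) and 0 lower, against 2.14% and 1.46% of genes. Slfn2 passed the filter there through day 28 alone, which set its direction. These shares are given for scale only, as the members were picked on these differences, and the comparisons share arrays. With dim values raised to the background, 2 of 3 were 2-fold higher for day 28 against day 6, because Slfn9 then differed by 0.69. Over all 7 members as measured, the median log2 difference was 1.37, 0.91 and 0.23 for day 28 against day 6, day 14 against day 6 and day 28 against day 14. The medians over all genes tested were 0.00, -0.04 and 0.03. Since 4 of the 7 members lay below the background throughout, the member medians rest largely on dim values: with these raised to the background they were 0.24, -0.087 and 0.33, in the same order.

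The only error at hand is that of measurement. Between probe sets of 1 gene, the log2 differences of day 28 against day 6 had an SD of 0.32 (4799 genes). Those of day 14 against day 6 and day 28 against day 14 had SDs of 0.31 and 0.24. Only probe sets above the background on both arrays entered these SDs. Slfn2 and Slfn9, below it at day 6, were thus not of the kind that gave the SDs against day 6. The SDs cover the probes and not the cultures. The central 95% of all probe sets of like level gives another scale. Between days 28 and 6, Slfn8 (2.87) lay beyond the range of -1.29 to 1.49 at its level, and Slfn2 (1.85 as measured) beyond -1.15 to 1.39. The day 6 value of Slfn2 was below the background, and with it raised to the background the difference of 1.03 lay within that range. Slfn9 (1.37) lay within -1.26 to 1.5. Between days 28 and 14, Slfn8 (1.05) lay beyond -0.92 to 0.83, and Slfn2 beyond -0.97 to 0.95, both as measured (1.95) and with its day 14 value raised to the background (1.11). Below the background, Slfn3 (-1.32) and a Slfn5 probe set (3.99) also lay beyond their ranges of -1.27 to 1.41 and -2.42 to 2.38, but no change is read from values that dim. These ranges include genes that differ between time points.

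**Figure D3:**
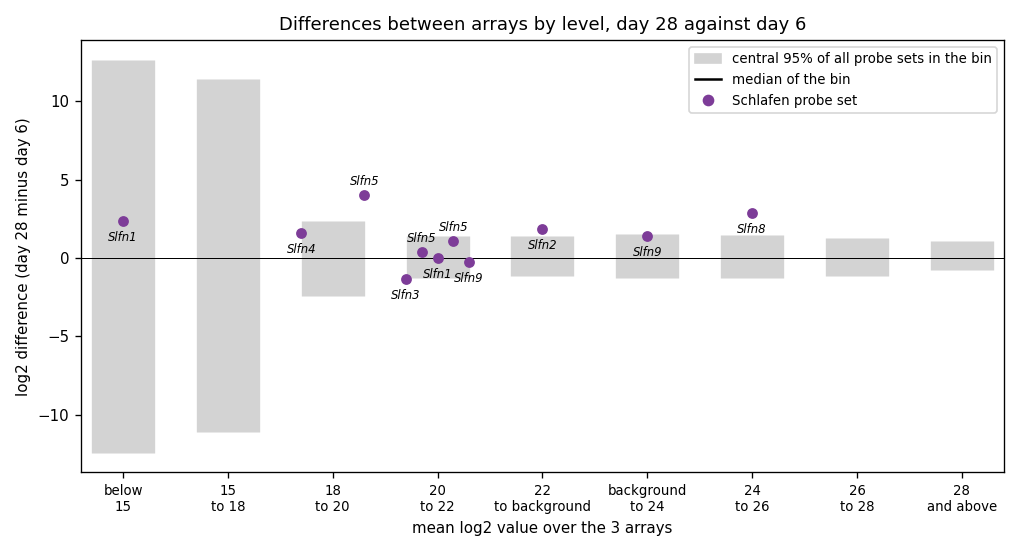
Log2 difference of day 28 minus day 6 (y axis) against the mean log2 value over the 3 arrays in bins (x axis). Grey bars span the central 95% of all probe sets in each bin, black lines the bin median, and purple points the 11 Schlafen probe sets, whose horizontal place within a bin has no meaning. The bars widen to -12.41 to 12.63 below a mean of 15, where a Slfn1 probe set lies, and Slfn8 (2.87) lies above its bar. Slfn2 is drawn as measured (1.85), against a day 6 value below the background, and would lie within its bar at 1.03 with that value raised to the background.

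Along the chromosome, the members above background were neighbours, with 1 more Schlafen gene between them. Slfn10-ps, named as a pseudogene, between Slfn8 and Slfn2 and no member here, read 20.47, 21.79 and 23.67 at days 6, 14 and 28. It lay above the background only at day 28, where it was at least 2.01-fold higher than at day 6 and at least 2.14-fold higher than at day 14. Slfn9, Slfn8, Slfn10-ps and Slfn2 thus follow one another on the chromosome among the genes with a probe set. All 4 read highest at day 28, Slfn9 on its brighter probe set. For Slfn10-ps and Slfn2 this follows from the choice of genes above the background, which they passed at day 28 alone. The other Slfn9 probe set read 22.02, 21.75 and 21.79, highest at day 6. The long forms are close relatives in sequence, and whether the probe sets of Slfn9, Slfn8 and Slfn10-ps detect each other's transcripts was not tested.

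The genes beside the cluster that lay above the background were not highest at day 28. On the Slfn5 side, Fndc8, a gene with a fibronectin type III domain, read 23.69, 23.92 and 23.56 in order of time. The ribosome assembly gene Nle1 read 23.32, 22.83 and 22.71, lowest at day 28. Unc45b, a myosin chaperone gene, lay below the background at 18.56, 21.57 and 21.41, as did the antisense transcript Slfn5os at 21.31, 21.82 and 21.06. The long non-coding RNA gene Unc45bos, at 20.86, 20.94 and 21.49, was also below it, although its values were in the order of time. On the far side, AI662270 read 21.65, 20.72 and 20.97, below the background. The adaptor subunit gene Ap2b1 read 25.85, 25.62 and 25.82. Genes of the cluster without a listed probe set, such as Slfn14, were not analysed here.

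**Figure D4:**
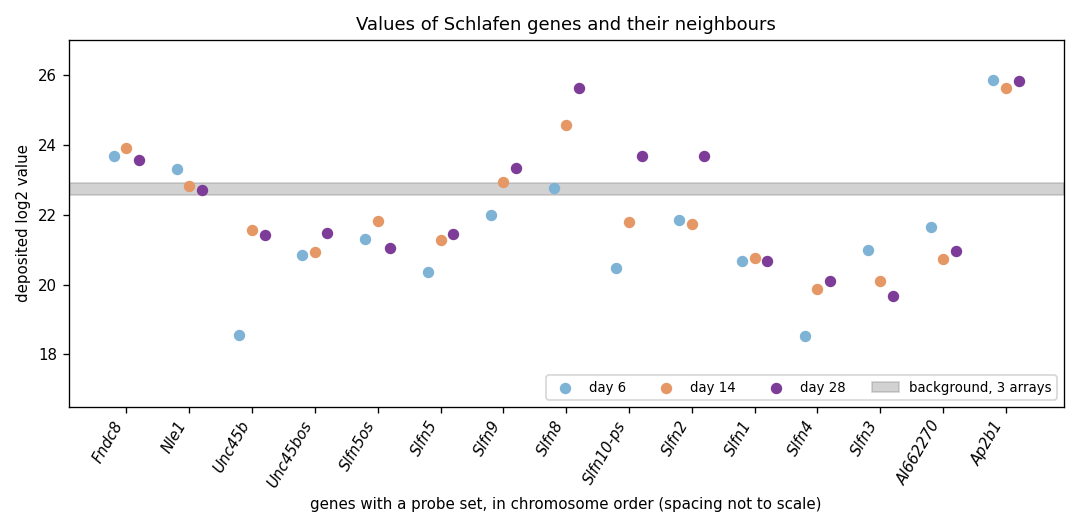
Deposited log2 values (y axis) at days 6, 14 and 28 of the Schlafen genes and the genes near them that have a probe set, in chromosome order (x axis, spacing not to scale), with the background of the 3 arrays as a grey band. Values above the band at day 28 and in the order of time are those of Slfn9, Slfn8 and Slfn10-ps. Slfn10-ps and Slfn2 lie above it at day 28 alone.

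The pathway that induces the family was read on lists drawn up beside it. Of 17 interferon ligand genes 9 had a probe set, and 0 lay above the background on any array, against 66.0% of all genes. Ifnb1, the type I interferon that many cell types make, read 21.64, 21.28 and 22.30 at days 6, 14 and 28, and the type II interferon gene Ifng read 20.79, 20.53 and 20.21. Both are examples picked after their values were seen. A transcript below the background of these arrays may still be present at a low level.

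Of 21 receptor and signalling genes with a probe set, 19 passed the background on 1 or more arrays, against 66.0% of all genes. Among these, day 28 exceeded day 6 by 2-fold in 1 and 0 were as much lower, with a median of 0.48. Of all genes, 6.43% were 2-fold higher and 4.08% lower, so the count of this list was near that share. Jak2, a kinase of the type II interferon receptor, read 26.15, 27.02 and 27.73 at days 6, 14 and 28. Day 28 exceeded day 6 by 3.0-fold, and its other probe set above the background differed by 1.32. Socs3, a feedback inhibitor of JAK signalling, was 1.90-fold higher, the type I receptor chain gene Ifnar2 1.66-fold and the shared receptor chain gene Il10rb 1.62-fold. Other probe sets of Ifnar2 and Il10rb gave at most 0.17 and 0.25. Stat2, a partner of Irf9, differed by -0.15. For day 14 against day 6, 1 of 18 was 2-fold higher, Il10rb at 2.32-fold, against 5.43% of all genes. The median was 0.28. Socs3, Jak2 and the other type I receptor chain gene, Ifnar1, were 1.89-fold, 1.84-fold and 1.68-fold higher, and the feedback gene Usp18 and Stat2 differed by -0.20 and -0.10. The other probe sets of Jak2, Ifnar1 and Stat2 differed by 0.42, 0.64 and -0.02. Between days 28 and 14, 0 of 19 were 2-fold apart, against 2.14% of all genes higher and 1.46% lower, and the median was 0.13. Jak2 was 1.63-fold, the interferon regulatory factor gene Irf7 1.36-fold and Usp18 1.31-fold higher, and Socs1 at least 1.29-fold. Il10rb, Ifnar1, Jak1 and Stat2 differed by -0.52, -0.25, -0.15 and -0.05. Other probe sets of Jak1 differed by -1.31 and 0.0045. Those of Jak2, Il10rb, Ifnar1 and Stat2 differed by 0.895, -0.81, -0.73 and -0.24.

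Of 30 interferon-stimulated genes with a probe set, 29 lay above the background on all 3 arrays, day 6 included. Of all 18194 genes, 10693 did so. Rsad2, an antiviral enzyme gene, read 29.51, 29.42 and 29.36 at days 6, 14 and 28, and Ifit1, which binds foreign RNA, read 28.51, 28.42 and 28.92. Both were picked as examples after their values were seen. For day 28 against day 6, 5 of 29 genes were 2-fold higher and 0 lower, against 6.43% and 4.08% of all genes. The median was 0.31.

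Of those 5, Ifi27l2a read 25.63, 25.85 and 28.12 at days 6, 14 and 28. Day 28 exceeded day 6 by 5.61-fold, nearly all of it after day 14, so that it was highest at day 28 alone, as Slfn2 was. The GTPase gene Iigp1 was 3.67-fold higher, the TRIM family gene Trim30a 3.02-fold and Oas2, which makes the activator of RNase L, 2.79-fold. Iigp1 read 26.39, 27.65 and 28.27 and Trim30a 25.98, 26.92 and 27.57, both in the order of time, as Slfn8 was. Oas2 read 25.33, 26.94 and 26.81, highest at day 14 and so unlike either. The fifth gene, Ifit3, outside the rule for named genes and chosen after its values were seen, read 28.05, 28.95 and 29.23. Oasl1, Cmpk2 and Eif2ak2 differed by -0.46, -0.36 and -0.29. Another probe set of Cmpk2 differed by -1.02, past 2-fold lower, and 2 others of Eif2ak2 by -0.64 and -0.46. The other probe sets of Iigp1 and Trim30a differed by 1.71 and 1.82. The counts used 1 probe set per gene.

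For day 14 against day 6, 2 of 29 interferon-stimulated genes were 2-fold higher and 1 lower, with a median of 0.15. These counts were near the shares of all genes, 5.43% and 3.95%. Oas2 was 3.04-fold higher and Iigp1 2.40-fold higher, while Oasl1 was 2.13-fold lower. Trim30a and Parp14, a mono-ADP-ribosyltransferase gene, were 1.92-fold and 1.90-fold higher, and Bst2, Ifih1 and Zbp1 differed by -0.56, -0.45 and -0.40. For day 28 against day 14, 2 were higher and 0 lower, against 2.14% and 1.46% of all genes, with a median of 0.16. Ifi27l2a was 4.84-fold higher and the tetherin gene Bst2 2.15-fold higher. Oasl2 and Trim30a were 1.58-fold and 1.57-fold higher, and Cmpk2, Ddx58, Parp14 and Mx2 differed by -0.57, -0.39, -0.35 and -0.22. The median of both lists thus lay above the median of all genes in all 3 comparisons, and most members of both were not 2-fold apart.

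**Figure D5:**
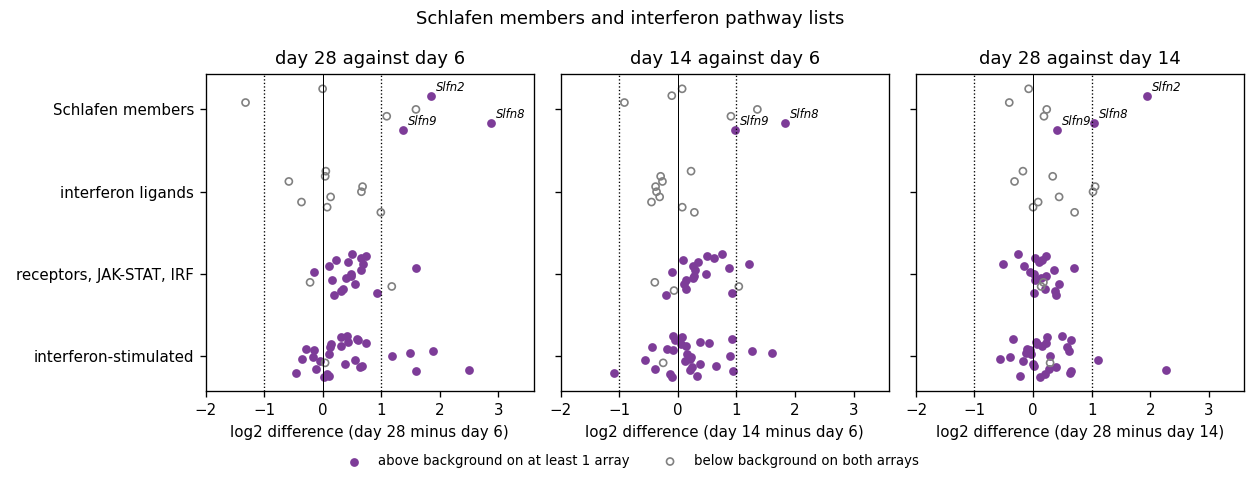
Log2 differences (x axis) of day 28 minus day 6, day 14 minus day 6 and day 28 minus day 14, 1 point per gene, for the Schlafen members and 3 interferon lists (rows). Filled points passed the background on 1 or both arrays of the pair and open points on neither, dotted lines mark 2-fold, and height within a row has no meaning. In the first panel Slfn8 (2.87) lies to the right of the interferon-stimulated genes, the furthest of which is Ifi27l2a (2.49). Differences are drawn as measured, also where a value lay below the background.

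The genes with the profile most like that of Slfn8 were found by the Euclidean distance between profiles over the 3 arrays, each centred on its own mean. Among 10693 genes above the background on all arrays, the closest was Tap1, the antigen peptide transporter gene, at a distance of 0.23 log2 units. Tap1 read 24.71, 26.35 and 27.26 at days 6, 14 and 28. Next came the matrix protease gene Mmp3 (0.27), the carboxypeptidase gene Cpm (0.30), the Shc adaptor gene Shc4 (0.31) and the vitamin D receptor gene Vdr (0.36). For Slfn9, among 10914 genes above the background at days 14 and 28, they were Fam214a, Adck2, Cspg5, Lynx1 and St3gal4, at 0.02 to 0.03. With 3 arrays many genes have like profiles, and nothing further is read from this order.

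Markers of other cells were read beside these values, since leukocytes express several Schlafen genes. Of 16 leukocyte markers with a probe set, 5 lay above the background on 1 or more arrays (Lyz2, Cd68, Csf1r, Adgre1 and Cd8a), against 66.0% of all genes. Ptprc, which marks all leukocytes, read 20.99, 20.80 and 21.42 at days 6, 14 and 28, below the background, as were Cd3e, Cd4, Cd79a and Itgam. Of the 5, 2 were higher and 3 lower at day 28 than at day 6, with a median log2 difference of -0.13. Lyz2, a lysozyme gene of myeloid cells, was 6.70-fold and Cd68 1.86-fold higher, and Csf1r, Cd8a and Adgre1 differed by -0.31, -0.28 and -0.13. The summed level of the list was 27.01, 27.82 and 28.17 in order of time, and Lyz2 alone read 24.57, 27.17 and 27.31. Fibroblast markers had 6 of 8 above the background and a summed level of 28.20, 29.03 and 28.47. At day 28, 3 of these were higher than at day 6 and 3 lower, with a median of 0.06. Pdgfra, a growth factor receptor gene, was 3.06-fold higher, although its other probe set differed by -0.20, and Dcn was at least 1.3-fold higher. Pdgfrb, Col3a1 and Col1a1 differed by 0.21, -0.08 and -0.37, and Col1a2 was at least 1.06-fold lower. The part of either list in the Schlafen values was not tested.

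Of 12 pigment cell markers, 9 passed the background on 1 or more arrays, among them Sox10, Mitf, Dct, Mlana and Tyrp1. Tyr, Kit and Trpm1 passed it on none. Oca2 passed at day 14 alone, at 22.73 against 22.58. Of all genes 66.0% passed, as did 6 of 8 fibroblast markers, so this count alone does not tell pigment cells from other cells. The summed level of the pigment cell list was 28.91, 31.30 and 30.32 at days 6, 14 and 28, highest at day 14. Dct, Mlana, Slc45a2 and Mitf were 18.43-fold, 17.46-fold, 6.32-fold and 4.38-fold higher at day 28 than at day 6, and Tyrp1 and Pmel differed by -0.11 and -0.02. The part of these genes in the Schlafen values was not tested. The 3' minus 5' difference, a sign of RNA quality, was 0.58 for Actb and -0.24 for Gapdh at day 6, with 0.76 and -0.10 at day 14 and 0.75 and -0.09 at day 28. The day 6 array thus stood somewhat apart from the others in this measure. The mean of the poly-A control probe sets was 23.96, 24.19 and 24.41 at days 6, 14 and 28, in the order of time like Slfn8 and Slfn9. The part of either measure in the Schlafen differences was not tested.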

How the data were processed

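The authors deposited 1 log value per probe set and array, 45101 in all and 64 of them controls. The log2 base was inferred from hybridization controls, whose values climbed by 0.77 to 0.80 for each doubling of concentration, and the deposited labels do not state it. The sources used here do not give the summarization of probes or the scaling. All 3 deposited columns hold the same log2 values once sorted, hence were quantile normalized, and ran from 1.46 to 30.6 with a median of 22.9. A constant added to all values would cancel in differences, and this was not tested. Biotinylated cRNA was prepared from total RNA, per the labels' protocols.

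Gene names came from the platform's annotation and, by gene ID, the GRCm38.p6 gene table: 34958 probe sets had 1 gene, 932 several and 9211 none listed. Each of 18194 genes was read on its probe set with the highest mean. Comparisons took genes that passed the background on 1 or both of their arrays, and where the dimmer array was at or below it, a fold is a lower bound against that array's background. The list of silent genes was a short one written for this work, in which Cela1 lay far above the rest, so the background was also taken without it.

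Members and lists were chosen with earlier results of these data known. Names come from all members, the up to 4 genes of each list furthest apart per direction and comparison, the genes within 5 of the cluster and the 5 most alike profiles. Of the last 5 lists (cell markers, proliferation and transfer RNA) and the cluster's surroundings, not every such gene is printed. Of 137 list genes in 8 lists, 122 were on the array. Promoter sequences came from RefSeq (GRCm38.p6). Alternatives covered scaling, probe set, background, dim values and size of difference. The scripts ran in Python 3.11.15 (numpy 2.4.6, pandas 2.3.3, matplotlib 3.10.9). The counts of 2-fold differences and the search for alike profiles were tested on simulated data. The changes planted there were in genes far above the background, brighter on average than any member here. Lower bounds, dim values and promoter searches were not tested in this way.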

Additional observations from a re-analysis of the deposited data

How the results depend on the processing

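No paired analysis was possible because each time point had 1 array. For the same reason no array could be left out. Slfn8 kept its direction and its 2-fold difference in all 3 comparisons when columns were shifted to equal hybridization controls (a shift of -0.08 for the comparisons with day 6). The settings on probe sets and dim values could not move it, since it has 1 probe set and no value below the background. The same 3 members lay above the background with the 75th percentile and, an alternative chosen after seeing the data, without Cela1. With averaged probe sets Slfn9 fell below it, and its difference between days 28 and 6 was 0.57.

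The median over the 7 members depended most on values below the background. With dim values raised it was 0.24 between days 28 and 6 and -0.087 between days 14 and 6, when 4 or more members rest on the background alone. With averaged probe sets it was 0.35 between days 14 and 6 and 0.95 between days 28 and 14. Below the background, Slfn3 (day 28 against day 6) turned to 0.24 and Slfn4 (day 14 against day 6) to -0.087 with dim values raised, by the construction of that setting.

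At 1.5-fold in place of 2-fold, 2 members were apart for day 14 against day 6. Receptor and signalling genes then numbered 6 of 19 (day 28 against day 6), 5 of 18 (day 14 against day 6) and 1 of 19 (day 28 against day 14). Interferon-stimulated genes numbered 9, 7 and 6 of 29 in that order. All were higher but 1 of the 7. The share of all genes past 1.5-fold was not taken, so these counts have no scale beside them and nothing is read from them.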

Other observations

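Several Schlafen proteins are known for effects on the G1 phase, so G1 cyclins and other proliferation genes were listed too. Between days 28 and 6, 0 of 19 were 2-fold higher and 3 lower, against 6.43% and 4.08% of all genes, with a median of -0.43: the S phase cyclin gene Ccna2 was 2.15-fold lower, Ccne2, a G1 cyclin gene, 2.77-fold lower and the replication helicase gene Mcm2 2.08-fold lower. Ccnd1, the D-type cyclin gene tied to Slfn1 in T cells, read 29.46, 29.20 and 29.37 at days 6, 14 and 28 (chosen after its values were seen, as were Ang and Rnh1 below). Ccnd2 and Ccnd3 were 1.66-fold and 1.49-fold higher at day 28 than at day 6. For day 14 against day 6, 0 were higher and 2 lower (against 5.43% and 3.95% of all genes) with a median of -0.51. For day 28 against day 14, 1 was higher and 0 lower (against 2.14% and 1.46%) with a median of 0.14. The inhibitor gene Cdkn2a was 2.09-fold lower at day 14 than at day 6 and 3.05-fold higher at day 28 than at day 14, which left day 28 at 1.46-fold above day 6.

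Slfn2 and human SLFN11 act on transfer RNA. Of 7 genes of transfer RNA cleavage and modification, 0 were 2-fold higher and 1 lower at day 28 than at day 6. Of all genes, 6.43% were higher and 4.08% lower, and with so few genes nothing is read from this count. The lower one was Nsun2, which methylates transfer RNA and was 2.09-fold lower. The nuclease gene Ang read 23.85, 23.48 and 23.66 at days 6, 14 and 28, and its inhibitor gene Rnh1 27.98, 27.55 and 27.58.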
